A study of Mus musculus with 2 samples.

Results

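Microglia are the resident macrophages of brain tissue, and 39 genes that mark them or act in macrophages were followed in the striatum of mice with and without the dopamine D2 receptor gene Drd2. The genes were listed by name as lineage factors, surface receptors, complement and lysosomal proteins or general leukocyte markers, and the choice used no threshold on the values. All 39 were measured, out of 18193 genes on the arrays, and 38 were detected on at least 1 array. There was 1 array of wild-type striatum and 1 of Drd2-/- striatum, both from naive male mice aged 2 months on a C57BL/6 background, and the labels name no other allele or agent in either group. The tissue was picked by hand under a microscope. Not given in the sources used here were the making of the Drd2-/- allele and whether an array held 1 animal or a pool. With 1 array per genotype no value has a replicate error and no difference was tested, so every difference below is a description of these 2 arrays.

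Where 2 signals stand side by side the first is wild type. Values are the authors' scaled signals, in arbitrary units on a linear scale, and ratios are on the log2 scale, with Drd2-/- over wild type. A gene is represented by its brightest probe set, and it counts as detected when the authors called that probe set present on at least 1 array. At all 45101 probe sets, the genotype names in the comparison table are the reverse of those in the sample labels for identical signals. The sample labels were followed, and the table's own log ratios were turned to match. Drd2 itself read 3235 units (present) on the array labelled wild type, and on the array labelled Drd2-/- it read 27.4 units (absent), a log2 ratio of -6.88. If the names in the comparison table were right instead, every sign below would turn.

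Microglia arise from yolk-sac progenitors, depend on signalling through the CSF1 receptor, and survey the brain with motile processes steered by nucleotide and chemokine receptors. In the healthy striatum they clear debris, supply complement that tags synapses, and hold a set of genes, often called homeostatic, that is lost when they are activated. In striatal RNA the signal of such a gene reflects both the number of these cells and the RNA in each, and these arrays cannot tell fewer cells from less RNA per cell.

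The 38 detected genes lay close together between genotypes. Their log2 ratios had a median of -0.13, their quartiles were -0.31 and 0.06, and the extremes were -0.66 (Selplg) and 0.76 (Ptprc), against a median of -0.06 over all 12588 detected genes. In all, 25 of 38 were below 0 (65.8%), where the background over all detected genes was 57.1%. At least 1.5-fold apart were 4 genes: Selplg and Itgb2 were lower in Drd2-/- (2 of 38, 5.26%, background 3.38%), and Ptprc and Cybb were higher (2 of 38, 5.26%, background 9.16%). Nothing is read from counts this small, and the other 34 genes lay within 1.5-fold. Median centring of the ratios, an alternative scaling, leaves 0 lower (background 2.42%) and 2 higher (background 11%). Quantile normalization gives 4 lower (background 7.28%) and 0 higher (background 6.09%). The plot of signals by gene sets the arrays side by side.

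**Figure D1:**
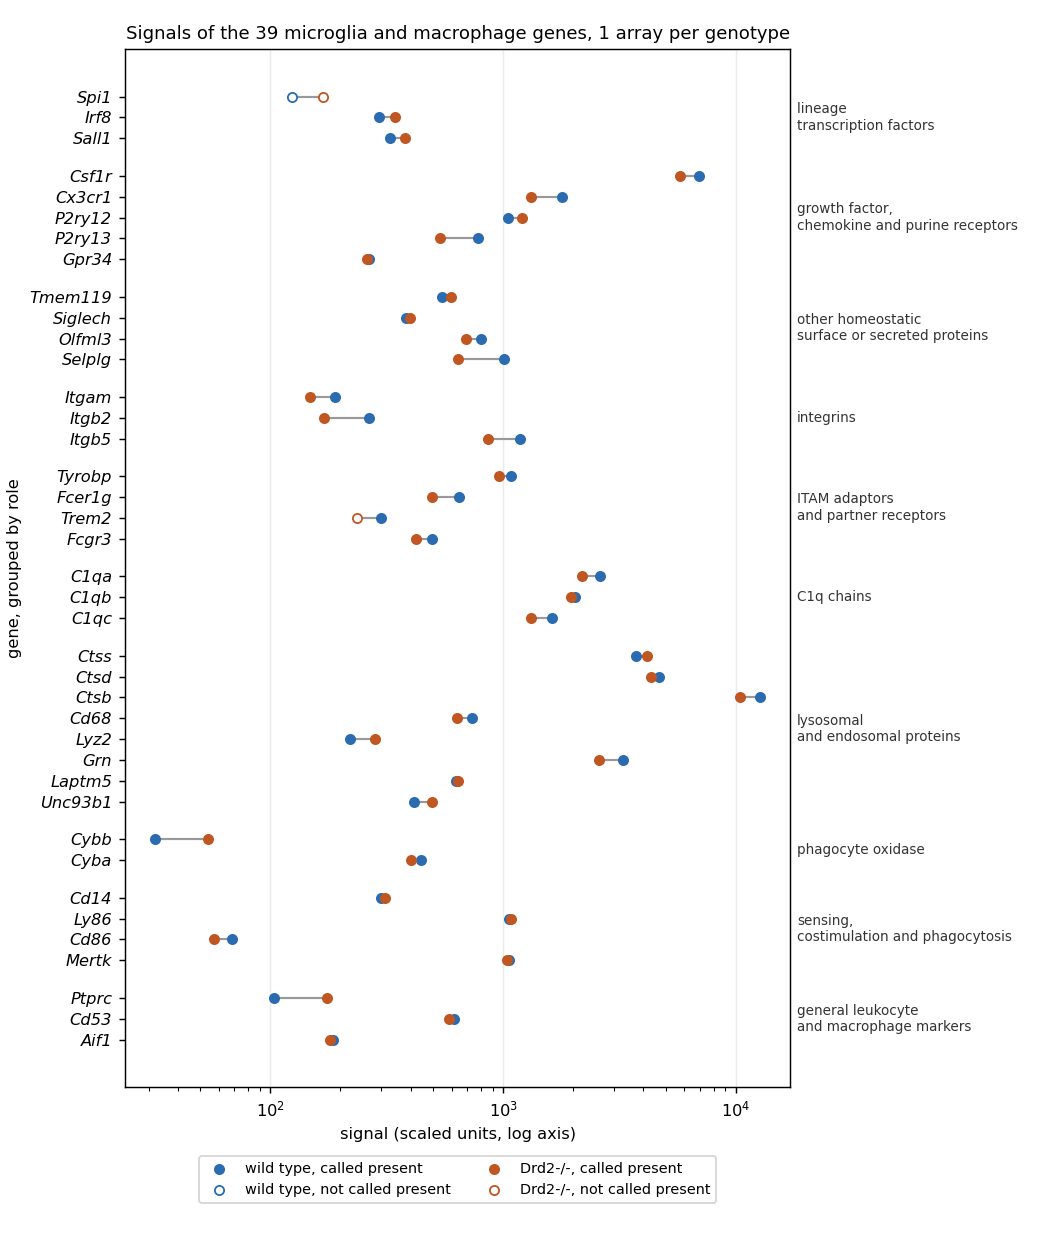
Signal of the representative probe set of each of the 39 genes on the wild-type array (blue) and the Drd2-/- array (orange), in scaled units on a log axis, with genes grouped by role. Filled points were called present and open points were not. The 2 points of most genes nearly touch, and the widest gaps belong to Selplg, Itgb2, Cybb and Ptprc.

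Among the factors that set the identity of these cells, Spi1 encodes PU.1, the ETS factor on which the macrophage lineage depends. Its probe set read 124 units and absent in wild type and 168 units and marginal in Drd2-/-, so Spi1 was the 1 gene of the 39 that was not detected and it enters no count. Irf8, an interferon regulatory factor that partners PU.1 on DNA, read 294 units in wild type and 343 in Drd2-/-, a log2 ratio of 0.22. Sall1, a zinc finger factor that holds microglia in their resident state, read 325 and 379 units, also 0.22, and 0.14 by its second probe set. Both detected factors were thus slightly higher in Drd2-/-, and their median was positive under each scaling tried (0.09 to 0.30), although the authors' deposited table lists Irf8 at 0.4 (limits 0.1 to 0.7) and Sall1 at -0.1.

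Promoters were searched for PU.1 letters because this factor is shared by the lineage. RefSeq windows of 300 bases on GRCm38.p6, from 250 before to 50 after a start site, were at hand for 27 of the 39 genes, 32 windows in all. Those not in that table were C1qa, Cd14, Cd86, Csf1r, Ctsb, Gpr34, Itgb2, Selplg, Spi1, Tmem119, Tyrobp and Unc93b1. The letters GAGGAAGT, on either strand, were found in windows of 3 genes, Ctss, Cd53 and C1qc (11.1% of the 27, against 3.69% of 27025 genes in the table). The shorter AGGAAGT, which the longer word contains, was found in 8 (29.6% against 10.7%): the same 3 and C1qb, Lyz2, P2ry12, Ptprc and Sall1. A match is a description of letters and not a binding site. The 3 windows with the longer word are printed 5′ to 3′ on the strand of the gene, with the match, read there as its reverse complement ACTTCCTC, in capitals. They lie at chr3:95526536-95526835 on the plus strand (Ctss), chr3:106790100-106790399 on the minus strand (Cd53) and chr4:136892865-136893164 on the minus strand (C1qc).
Ctss: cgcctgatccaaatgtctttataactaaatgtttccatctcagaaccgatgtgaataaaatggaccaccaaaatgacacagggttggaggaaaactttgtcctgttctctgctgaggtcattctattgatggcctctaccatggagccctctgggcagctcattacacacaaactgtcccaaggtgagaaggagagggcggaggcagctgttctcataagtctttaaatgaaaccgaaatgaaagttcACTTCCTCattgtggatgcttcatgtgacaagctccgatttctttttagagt
Cd53: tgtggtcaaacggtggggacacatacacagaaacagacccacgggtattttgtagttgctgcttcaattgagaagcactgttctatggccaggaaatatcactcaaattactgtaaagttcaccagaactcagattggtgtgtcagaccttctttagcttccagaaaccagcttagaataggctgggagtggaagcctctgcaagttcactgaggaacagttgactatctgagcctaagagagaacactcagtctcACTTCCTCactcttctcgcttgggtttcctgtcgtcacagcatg
C1qc: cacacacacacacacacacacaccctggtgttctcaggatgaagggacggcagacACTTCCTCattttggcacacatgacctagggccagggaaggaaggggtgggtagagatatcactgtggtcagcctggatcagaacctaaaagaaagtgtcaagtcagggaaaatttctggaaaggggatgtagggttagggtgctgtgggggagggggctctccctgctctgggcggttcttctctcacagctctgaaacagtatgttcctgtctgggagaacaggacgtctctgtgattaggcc
The match starts 2 bases before the start site in Ctss and 195 bases before it in C1qc, and in Cd53 it lies just after it. The ratios of these genes did not share a direction, at 0.16 for Ctss, -0.06 for Cd53 and -0.31 for C1qc.

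Receptors for growth factor, chemokine and nucleotides gave a median of -0.27 over 5 genes, between -0.27 and -0.15 over the scalings tried. Csf1r, the receptor for the survival factors CSF1 and IL-34, read 6915 units in wild type and 5728 in Drd2-/- (log2 ratio -0.27). Its other probe sets gave -0.24 and, for the one of the 3 designed on a full-length message, -0.49, so all of them were lower in Drd2-/-. The fractalkine receptor Cx3cr1, through which neurons restrain microglia, read 1783 and 1316 units (-0.44), with its second probe set at -0.35. In the authors' deposited table both probe sets of Cx3cr1 were called decreased, at -0.5 and -0.4. The ADP receptor P2ry12, which draws microglial processes toward injury, stood on the other side, at 1051 units in wild type and 1200.2 in Drd2-/- (0.19), and the authors' deposited table called it increased at 0.3 (limits 0.1 to 0.4). P2ry13, a related ADP receptor, read 779 and 533 units, a log2 ratio of -0.55. P2ry13 stands at only -0.1 in the authors' deposited table (limits -0.3 to 0.0), so the size of that gap differed between the measures. Gpr34, a lysophosphatidylserine receptor, was nearly level at 264 and 261 units (-0.02).

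Other homeostatic proteins were split, 2 below 0 and 2 above it, with a median of -0.07 (-0.13 to -0.00 over the scalings). Selplg, the ligand of P-selectin, read 1006.5 units in wild type and 638 in Drd2-/-, which is 1.58-fold lower and the lowest ratio of the list (-0.66). Selplg is called unchanged in the authors' deposited table, at -0.4 (limits -0.7 to 0.0). Tmem119, a membrane protein that marks microglia apart from blood-borne macrophages, read 544 and 594 units (0.13). The lectin Siglech read 382 and 399.5 units (0.07). For both of these the authors' deposited table has the opposite sign, -0.3 for Tmem119 and -0.1 for Siglech. Olfml3, a secreted protein, read 803 and 693 units (-0.21), and -0.2 in the authors' deposited table.

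All 3 integrin genes were lower in Drd2-/-, where 57.1% of all detected genes were. Their median of -0.46 was below 0 under each scaling tried (-0.63 to -0.38). Itgam encodes the alpha chain of the complement receptor known as CD11b, and read 190.1 units in wild type and 148 in Drd2-/- (-0.36). Itgb2 encodes the beta chain that pairs with it. It read 264 and 169.7 units, 1.56-fold lower (-0.64), and stands at -0.4 in the authors' deposited table (limits -0.8 to 0.1). Itgb5, a subunit of a vitronectin receptor that other cells also make, read 1182 and 861 units (-0.46). Its other 3 probe sets were lower as well, at -0.49, -0.36 and -0.33, and the authors' deposited table called its representative decreased at -0.3.

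The immunoreceptor signalling group held 4 genes, 2 adaptors with an ITAM (a tyrosine motif that recruits Syk kinase) and 2 receptors. All 4 were lower too, where 57.1% of all detected genes were. Their median was -0.28 (-0.36 to -0.21 over the scalings). Tyrobp, the adaptor DAP12, read 1082 units in wild type and 958 in Drd2-/- (-0.18). Fcer1g, the gamma chain shared by Fc receptors, read 643 and 496.5 units (-0.37). Trem2, the lipid-sensing receptor that signals through DAP12, read 298 units and present in wild type and 234.5 units and absent in Drd2-/-. Its log2 ratio of at most -0.35 is thus a bound, at least 1.27-fold lower, and in the authors' deposited table Trem2 stands at -0.5 (limits -0.9 to 0.0). Fcgr3, a low-affinity receptor for IgG that signals through the gamma chain, read 492 and 423 units (-0.22). Each of the 4 was negative in the authors' deposited table too, between -0.5 and -0.2, where 55% of all detected genes were negative. All 4 were called unchanged there.

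C1q, which starts the classical complement cascade and in brain comes mainly from microglia, is built from 3 chains. C1qa read 2595 units in wild type and 2178 in Drd2-/- (-0.25). C1qc read 1626 and 1312 units (-0.31) and was called decreased in the authors' deposited table, at -0.4 (limits -0.5 to -0.3). C1qb differed less, at 2031 and 1959.5 units (-0.05), and its other 2 probe sets gave -0.02 and -0.27. All 3 chains were below 0 from their representative probe sets, where 57.1% of all detected genes were. C1qb, however, came out above 0 under some alternatives (highest value 0.06).

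Lysosomal and endosomal genes showed no common direction from the signals, with 4 of 8 below 0 and a median of -0.05 that ran from -0.05 to 0.05 over the scalings. Ctsb, a cysteine protease of most cells, read 12678 units in wild type and 10355 in Drd2-/- (-0.29). Its 3 other detected probe sets were lower too, at -0.34, -0.25 and -0.10. Grn, the precursor of the granulins that act in lysosomes, read 3264 and 2586.5 units (-0.34), and its other probe sets gave -0.15 and -0.13. The macrophage lysosomal glycoprotein Cd68 read 737 and 636 units (-0.21). The aspartic protease Ctsd read 4673 and 4291 units (-0.12). Cathepsin S (Ctss), which among brain cells is largely microglial, was on the other side at 3698 and 4125 units (0.16). So were Lyz2, encoding lysozyme, at 219 and 281 units (0.36), and Unc93b1, the chaperone of endosomal Toll-like receptors, at 414 and 497 units (0.26). Laptm5, a lysosomal membrane protein of leukocytes, was level at 626 and 640.5 units (0.03), and the other probe sets detected for it lay from -0.11 to 0.00. That 0.00 belongs to a dim probe set, at 26.1 units and present in wild type and 82.8 units and absent in Drd2-/-. It was set to 0 by the rule for bounds and does not show a level signal. All 8 lysosomal and endosomal genes are negative in the authors' deposited table, between -0.3 and -0.1, where 55% of all detected genes were negative.

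The phagocyte oxidase makes superoxide from a membrane pair of proteins. Cybb, the catalytic chain, read 32 and 54.2 units, 1.69-fold higher in Drd2-/- (0.76). It was present on both arrays, yet the authors' deposited table calls it unchanged, at 0.8 (limits -0.3 to 1.9). Its 2 other probe sets were called absent on both arrays. Cyba, the partner chain, read 442 and 401 units (-0.14), so the 2 chains lay on opposite sides of 0. Of the listed partners of this enzyme, 4 of 7 measured genes were detected: Ncf1, the organizing cytosolic subunit, at 346 and 247 units (-0.48), Rac2 at -0.28, Rac1 at -0.16 and Rap1a at 0.44. None of them was 1.5-fold apart.

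Genes of sensing, costimulation and debris uptake were nearly level, with a median of -0.01 whose sign changed with the scaling (-0.05 to 0.07). Cd14, the lipopolysaccharide co-receptor, read 299 units in wild type and 312 in Drd2-/- (0.06). Ly86, the partner of the receptor RP105, read 1063 and 1075 units (0.02). Mertk, a kinase receptor for the engulfment of dying cells that astrocytes also make, read 1058 and 1036 units (-0.03). Cd86, a T cell costimulator, read 68.6 and 57.5 units (-0.25), but its second probe set, present in Drd2-/- alone, gave at least 0.24, so its direction is not settled.

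General leukocyte and macrophage markers held the highest ratio of the list. Ptprc encodes the leukocyte surface phosphatase CD45, and its signals were 103.5 and 175.5 units, 1.70-fold higher in Drd2-/- (0.76). The authors' deposited table called it increased, at 0.5 (limits 0.1 to 0.9), and its second probe set was absent on both arrays. Cd53, a tetraspanin of all leukocytes, read 613 and 586 units (-0.06). Aif1, the actin-binding protein IBA1 by which microglia are stained, read 186 and 180 units (-0.05), and stands at 0.4 in the authors' deposited table (limits -0.5 to 1.3).

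**Figure D2:**
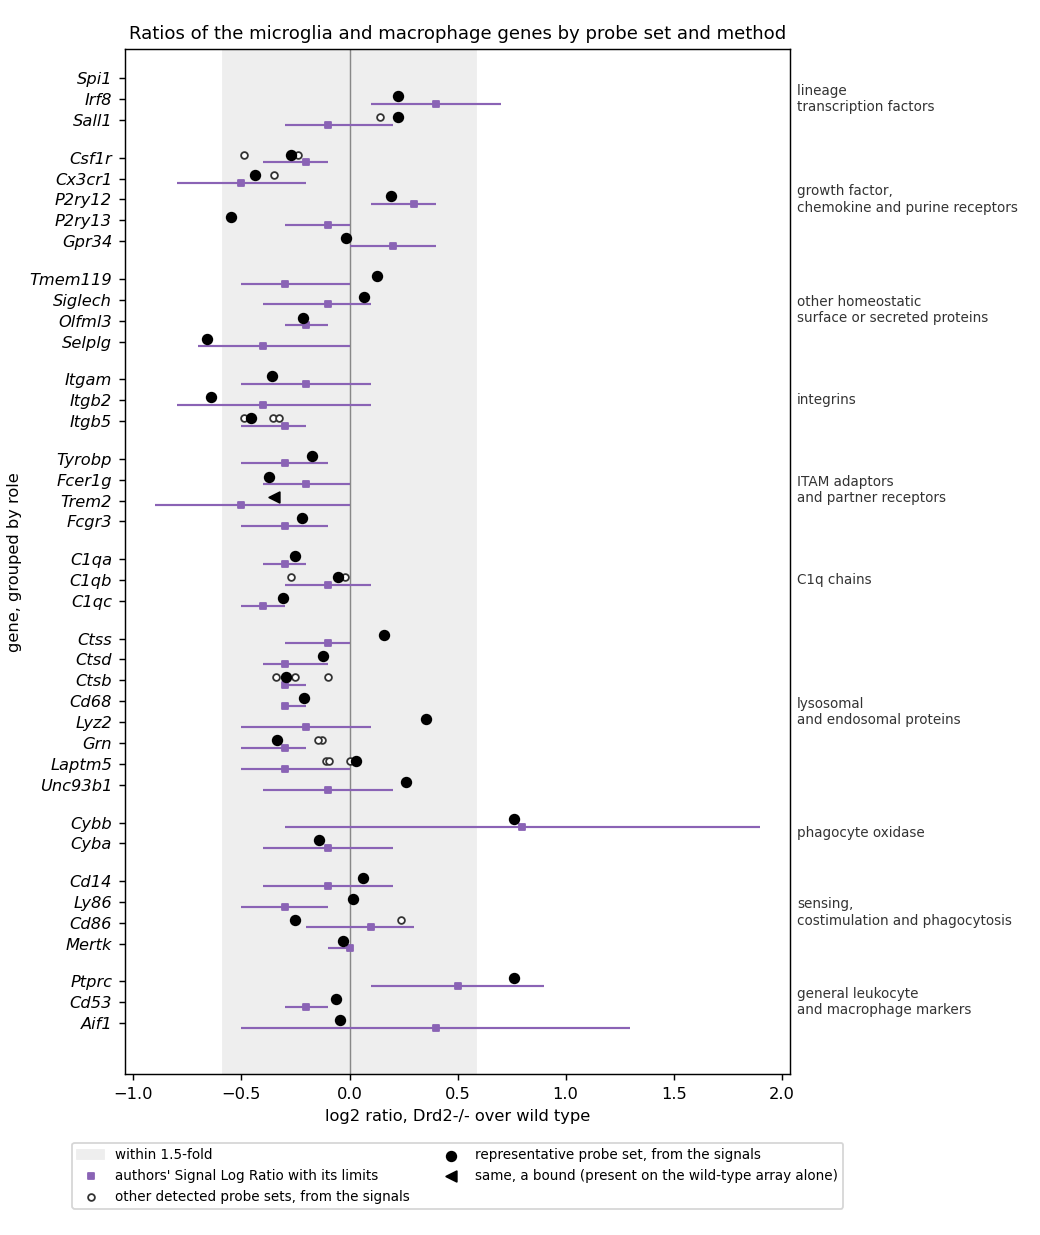
Log2 ratio of Drd2-/- over wild type for the detected genes, by role: filled black points are representative probe sets, open points other detected probe sets, the triangle marks the bound for Trem2, and squares with bars are the authors' Signal Log Ratio with its limits over probes. Grey marks the range within 1.5-fold. Integrin, ITAM and C1q genes lie left of 0 by both measures, while Tmem119, Siglech, Ctss, Lyz2 and Unc93b1 lie right of 0 by signals and left of it by the authors' measure.

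The authors' Signal Log Ratio compares the probes of the arrays pair by pair and so gives a second reading of the same RNA. By the authors' deposited table, 30 of the 38 genes were below 0 (background 55%), 7 were above it (background 33.4%) and 1 was at 0, with a median of -0.20 against -0.10 over all detected genes. Both limits lay below 0 for 14 of 38 (36.8%, background 22.6%) and above 0 for 3 (7.89%, background 13.3%), the latter being Irf8, P2ry12 and Ptprc in the authors' deposited table. The authors' deposited table called 3 of 38 decreased, Cx3cr1, Itgb5 and C1qc (7.89%, background 5.67%), and 2 increased, P2ry12 and Ptprc (5.26%, background 8.79%). These limits and calls rest on probes within 2 arrays and not on replicate animals. At 1.5-fold the authors' deposited table has 0 of the 38 lower (background 1.87%) and 1 higher, Cybb (background 8.05%).

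Ratios on these arrays depended on signal, which matters for a list of dim and bright genes. Over all detected genes the median log2 ratio went from 0.06 in the dimmest of 4 equal bands of mean signal through -0.05 and -0.10 to -0.14 in the brightest. The listed genes in those bands numbered 6, 13, 11 and 8, with medians of -0.15, 0.06, -0.21 and -0.26. Below the median of all genes in their own band lay 4 of 6, 5 of 13, 7 of 11 and 5 of 8. Ptprc, Cybb and Itgb2, which are 3 of the 4 genes at least 1.5-fold apart, were all in the dimmest band.

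**Figure D3:**
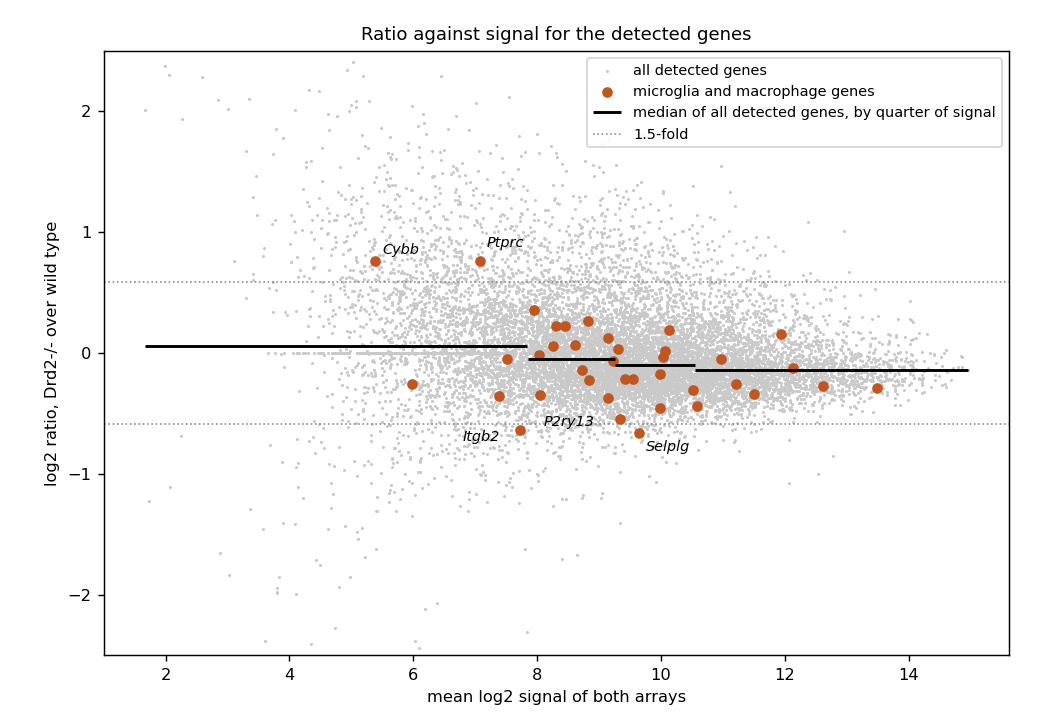
Log2 ratio of Drd2-/- over wild type against mean log2 signal for the 12588 detected genes (grey) and the 38 detected microglia and macrophage genes (orange). Black lines are medians of all detected genes in 4 equal bands of signal, dotted lines mark 1.5-fold, and 19 genes lie beyond the vertical axis limits of 2.5. Cybb and Ptprc sit above the upper dotted line and Selplg and Itgb2 below the lower one, within the cloud of other genes.

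Several listed genes are also made by other brain cells. Ctsd, Ctsb, Grn, Itgb5, Mertk, Cyba and Unc93b1 had a median of -0.14, with 6 of 7 below 0 (85.7%, background 57.1%). Ctsd, Ctsb and Grn lay in the brightest band, where 72.4% of all detected genes were below 0. Without these 7 genes the median of the remaining 31 detected genes was -0.06, equal to that of all detected genes. Of the 31, 19 were below 0 (61.3%, background 57.1%). By the authors' Signal Log Ratio the 31 genes did not match all detected genes, with a median of -0.20 against -0.10. By that measure 24 of the 31 were below 0 (77.4%, background 55%). Lysosomal genes of all cell types, a list of its own, were below 0 in 13 of 18 detected genes (72.2%) and above 0 in 5. Of these 18, 10 lay in the brightest band, where 72.4% of all detected genes were below 0. The list's median of -0.19 came to -0.08 with intensity-dependent centring. Its lowest ratios were those of Hexa (-0.43), Npc2 (-0.41), Lamp1 (-0.40) and Psap (-0.34), all of them in the brightest band.

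A second set of homeostatic microglia genes that are not among the 39 gave a median of -0.11 over 16 detected genes, with 10 below 0 (62.5%, background 57.1%) and none 1.5-fold apart. Fcrls, an Fc receptor-like protein of microglia, read 869 units in wild type and 646 in Drd2-/- (-0.43). The organic anion transporter Slco2b1 read 576 and 435 units (-0.41). On the other side were the TGF-beta receptor Tgfbr1, at 614 and 867 units (0.50), which many cells make, and the prostaglandin D synthase Hpgds at 70.1 and 96.1 units (0.46). Ligands and partner receptors by which microglia and other cells address each other were below 0 in 8 of 9 detected genes, where 57.1% of all detected genes were. Of the 9, 7 lay in the 2 brighter bands, in which 63.4% and 72.4% of all detected genes were below 0. Their median of -0.27 was negative under each scaling (-0.27 to -0.17). They included the fractalkine gene Cx3cl1, the ligand of Cx3cr1, at 10006 and 7919 units (-0.34), Il34, a ligand of Csf1r, at 837 and 690 units (-0.28), and Sirpa, the receptor for the ligand CD47, at 3647 and 2808 units (-0.38). Csf1, the other ligand of Csf1r, read 258 and 317 units (0.30) but 0.0 in the authors' deposited table.

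Of the genes that microglia switch on around damage, 18 were measured and 13 detected, with a median of -0.12 (-0.12 to -0.00 over the scalings), 7 below 0 and 3 above it, where 57.1% of all detected genes were below 0. The rest of the 13 were present on 1 array alone and were set to 0 by the rule for bounds. Apoe, a lipid carrier that astrocytes also make, read 13306 units in wild type and 11095 in Drd2-/- (-0.26), and the lipase gene Lpl read 3156 and 4048 units (0.36). Itgax, encoding the integrin chain CD11c, read 20.6 units and absent in wild type and 67.7 units and present in Drd2-/-, a bound of at least 1.72 on the log2 scale. Itgax is nevertheless called unchanged in the authors' deposited table, at 1.8 (limits 1.3 to 2.3), and both signals are dim. Complement partners and receptors were detected in 5 of 8 measured genes. All 5 were below 0 as the authors scaled them, where 57.1% of all detected genes were. Their median of -0.08 ran from -0.32 to -0.00 over the scalings and was 0.03 over second probe sets, which 4 genes have. They included Cd55, a brake on complement, at 50.5 and 31.6 units (-0.68) and the receptor C3ar1 at most -0.34. Cr1l (-0.08), Serping1 (-0.06) and Cd93 (-0.04) were nearly level from the signals. The authors' deposited table has Cr1l at -0.4 (limits -0.6 to -0.1), Cd93 at -0.2 and Serping1 at 0.0. Fc receptors and their signalling genes were detected in 7 of 14, with a median of 0.00 (-0.28 to 0.00 over the scalings). That 0.00 is the value of a gene present on 1 array alone, set to 0 by the rule for bounds. Over the 3 genes present on both arrays the median was -0.36. At 1.5-fold 1 gene of the 7 was lower (background 3.38%) and 1 higher (background 9.16%). The higher was the inhibitory IgG receptor Fcgr2b, at 464 and 919 units (0.99), although the authors' deposited table has it at -0.1. The lower was Fcgr1, the high-affinity IgG receptor, which read 195.8 and 109.9 units (-0.83), and is called unchanged in the authors' deposited table, at -0.8 (limits -1.3 to -0.3).

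The tissue also holds other macrophages and blood cells, and their markers were read on the same arrays. Of 10 markers of border-associated macrophages, which lie along vessels and meninges, 5 were detected, and the signals of all 10 summed to 735 units in wild type and 751 in Drd2-/-, those of the 5 to 573 and 568. Mrc1, the mannose receptor, read 64.6 and 95.7 units (0.57), Pf4 -0.14, F13a1 -0.17 and Stab1 -0.12. Monocyte and neutrophil markers were called present for 2 of 8 measured genes, S100a8 at 55.8 and 71.4 units and Ngp in Drd2-/- alone at 57.3 units, a bound of at least 0.72. The authors' deposited table has Ngp at 0.5 (limits 0.1 to 1.0) and S100a8 at -0.2 (limits -1.2 to 0.9). The 8 together summed to 294 and 423 units, but 6 of them were detected on neither array, and no direction is read from that sum. The detected pair summed to 90.7 and 129 units. The monocyte receptor Ccr2 was absent on both arrays. Of 9 lymphocyte markers 1 was detected, Cd4, at 1088 and 1210 units (0.15), and Cd3e, a chain of the T cell receptor complex, was absent on both arrays. Cd4 has the opposite sign in the authors' deposited table, at -0.2 (limits -0.5 to 0.1). The 9 summed to 1304 and 1518 units, with 8 of them detected on neither array. The 3 red blood cell markers measured were detected on neither array and summed to 303 and 209.9 units. The part of such cells in the ratio of Ptprc, a gene of all leukocytes, was not tested.

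Astrocyte and oligodendrocyte markers gave medians of -0.14 and -0.14 over 10 and 9 detected genes, and markers of striatal projection neurons -0.07 over 10, each moving to between -0.01 and 0.06 at the highest over the scalings. As the authors scaled the signals, the median of -0.13 for microglia and macrophage genes lay within the range of these cell types. The same held with median centring and with units added to both arrays. With quantile normalization the microglia and macrophage median was below them all, at -0.17 against -0.06 (astrocytes), 0 (oligodendrocytes) and 0.04 (projection neurons). With intensity-dependent centring it was again below them, at -0.09 against -0.01, -0.01 and 0.06. Whether these medians differ cannot be tested with 1 array per genotype. Markers of excitatory neurons of the cortex had a median of -0.33 (from -0.54 to -0.26 over the scalings) with 5 of 9 detected genes below 0, but the median turned to 0.06 over the 6 genes present on both arrays and to 0.09 over second probe sets, which 2 genes have. From the signals, Neurod6 among them stood at -2.51, Tbr1 at most -2.12 and Slc17a7 at -1.62. The authors' deposited table has Neurod6 at -2.5 and Slc17a7 at -1.8, but Tbr1 at only -1.1 (limits -2.7 to 0.5). Over the 11 measured genes of that list the signals summed to 14787 and 15227 units. Most of that sum came from bright genes, such as Nrgn at 5189 and 5474 units and Lamp5 at 4727 and 5334. Slc17a7 read 392 and 127 units and Neurod6 146 and 25.6, so no direction is read from the sum. The part of such neighbouring tissue in the microglial values was not tested.

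**Figure D4:**
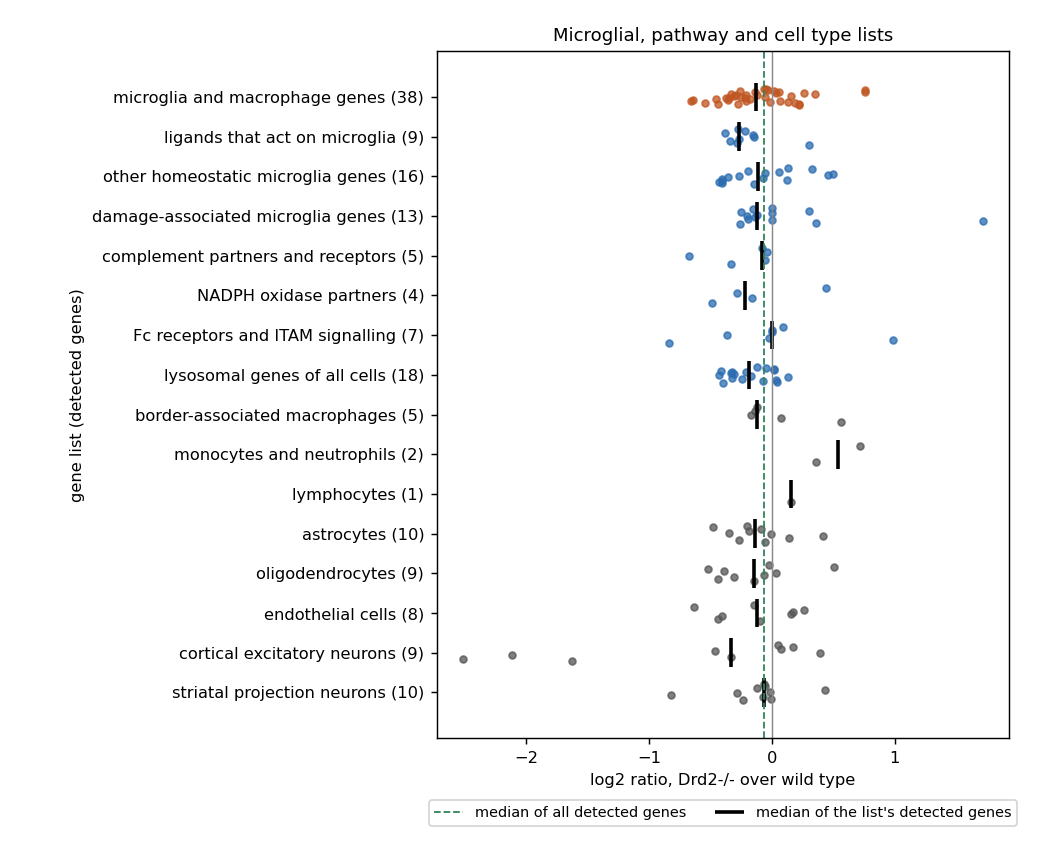
Log2 ratio of Drd2-/- over wild type for the detected genes (points) of the microglia and macrophage list (orange), of related pathway lists (blue) and of cell type markers (grey), with the number of detected genes in brackets. Black bars are list medians and the dashed line is the median of all 12588 detected genes. The microglia and macrophage median of -0.13 lies beside those of astrocytes and oligodendrocytes, and cortical neuron markers reach farthest to the left.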

How the data were processed

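Striatal RNA was hybridised to Affymetrix arrays, 1 per genotype. The authors deposited 1 scaled signal intensity per probe set, with a detection p-value and call, per the file headers. A further deposited measure is a log2 Signal Log Ratio with limits, computed between the probes of the arrays, a change call and a change p-value, which is not printed here, per the file headers. Not given in the sources used here is the software. Signals were taken by sample label from the value table. Detection calls were joined to them by equal signals, because the comparison table names the genotypes the other way round, and its ratios were turned accordingly. Probe sets that the platform annotation pairs with 1 gene (34945) were kept. A gene is represented by its brightest probe set (mean log2 signal). If only 1 array was called present, the ratio is a bound: the other array takes its own signal or its lowest present signal (wild type 5.0 units, Drd2-/- 5.9 units), whichever is higher, and a bound of the wrong sign becomes 0. Signals under 0.1 were raised to 0.1. With 1 array per genotype no test was possible, and precision is limited by that number. The steps were tested on simulated data with known ratios. Python 3.11.15, pandas 2.3.3 and statsmodels 0.14.6 were used.

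The genes and lists were chosen with earlier results of these data known. All 39 genes are named. Of each other list, up to 4 detected genes with the largest absolute ratio and the 2 brightest could be named. Ccr2 and Cd3e fall outside that rule and were picked with their values in view, as were the promoter motifs. Alternatives were median centring, quantile normalization, intensity-dependent centring (lowess, span 0.2), 32 units added to both arrays, other filters on detection, other choices of probe set, the authors' log ratio and leaving out genes that other brain cells make.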

Additional observations from a re-analysis of the deposited data

How the results depend on the processing

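The median log2 ratio of the detected listed genes was negative in all 10 alternatives and ran from -0.24 to -0.06. The median over all genes was at or below 0 in each of them too, from -0.10 to 0.00. The lowest value for the list came from the second brightest detected probe sets (-0.24), which exist for only 9 genes. Of these 9, 7 were below 0 (background 47.3%). At 1.5-fold 0 were lower (background 3.32%) and 0 higher (background 15.4%). The counts of 2 lower and 2 higher genes at 1.5-fold were less firm. They became 0 lower (background 2.42%) and 2 higher (background 11%) with median centring. Quantile normalization gave 4 lower (background 7.28%) and 0 higher (background 6.09%). Intensity-dependent centring gave 1 lower (background 3.88%) and 1 higher (background 8.55%). With 32 units added there was 1 lower (background 2.09%) and 1 higher (background 6.32%). The authors' log ratio gave 0 lower (background 1.87%) and 1 higher (background 8.05%). The cause of these shifts was not tested. Over all detected genes, 425 were lower and 1153 higher at 1.5-fold (73.1% of those apart), and 917 and 766 (45.5%) after quantile normalization. Over the setting reported and 9 of these alternatives, 19 genes were negative throughout, 4 positive throughout (Cybb, Irf8, P2ry12 and Ptprc), and 15 changed sign. The same count was not made over all detected genes, of which 57.1% were below 0 in the setting reported. No direction of the list is read from it. None of the 4 genes at least 1.5-fold apart changed sign. For these 4 the filters on detection and other choices of probe set could not turn a sign, since they returned the same value or none. Low signal limits Cybb, Cd86, Ptprc and Spi1, the dimmest of the list. No paired analysis was possible because each genotype has 1 array.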

Other observations

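The signals and the authors' Signal Log Ratio gave opposite signs for a number of the microglia and macrophage genes. Of the 34 listed genes within 1.5-fold, 12 (35.3%) had opposite signs by these measures, against 11.5% of the 11010 detected genes within 1.5-fold. The 12 were Aif1, Cd14, Cd86, Ctss, Gpr34, Laptm5, Ly86, Lyz2, Sall1, Siglech, Tmem119 and Unc93b1. Of the 13 listed genes with a positive ratio from the signals, 9 were negative in the authors' deposited table (69.2%), as were 841 of the 5090 detected genes with a positive ratio (16.5%). This is a description of the same 2 arrays, with no test, and its cause was not tested.

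Fcgr2b, the inhibitory IgG receptor, shows how far the measures can part. Its brightest probe set read 464 units in wild type and 919 in Drd2-/-, a log2 ratio of 0.99, while the authors' deposited table gives that probe set -0.1 with limits of -0.4 and 0.2. Its 3 other detected probe sets gave -0.49, -0.27 and 0.57 from the signals.

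Some probe sets paired with listed genes were called present on neither array, 9 of 65 in all. The dimmer Trem2 probe set read 27.5 units in wild type and 81.9 in Drd2-/-. A second Cd53 probe set read 21.7 and 4.7 units. The 2 undetected Cybb probe sets read 14.2 and 36.7 units and 18.3 and 30.8 units. No direction is read from probe sets that were not called present.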
